A study of Drosophila melanogaster with 6 samples.

Results

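Respiratory complex I is the NADH dehydrogenase of the mitochondrial inner membrane, and most of its subunits are encoded in the nucleus. The genes described here are the nuclear-encoded subunits and their paralogs whose FlyBase symbol starts with ND-. There were 40 such genes among the 17869 gene rows of the count tables, and 34 of them had at least 12 counts over the 6 libraries and were tested. RNA was sequenced from whole second-instar (L2) larvae of *Drosophila melanogaster*, with 3 libraries of *Pyk 23/31* mutants and 3 of *Pyk 23/+* heterozygous controls. *Pyk* encodes pyruvate kinase, the enzyme of the last step of glycolysis. Alleles 23 and 31 are separate CRISPR deletions that shift the reading frame in the first coding exon. Both genotypes carry allele 23, so the controls have 1 intact copy of *Pyk*. Larvae were pooled without regard to sex, and the mutants do not live beyond the L2 stage. The comparison asks how the transcripts for complex I differ when *Pyk* is lost.

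Complex I passes electrons from NADH to ubiquinone and pumps protons across the inner membrane. NADH is oxidised at the tip of a peripheral arm that reaches into the matrix, and electrons run along a chain of iron-sulfur clusters to the quinone site near the membrane. The membrane arm does the pumping. Its central subunits come from mitochondrial DNA, and the nucleus supplies the catalytic subunits of the peripheral arm and all of the accessory subunits around both arms. The accessory subunits do no electron transfer, and many of them are needed for assembly or stability. The subunits are given below by the arm in which their mammalian orthologs lie.

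Libraries held 12499172 to 16029304 assigned read pairs in the mutants and 11249487 to 11784491 in the controls. Values are CPM, counts scaled to a common library total and corrected by the trimmed mean of M-values (TMM), and lists of 3 values follow replicates 1, 2 and 3. *Pyk* itself stood at 53.7, 44.0 and 57.7 CPM in the mutants, against 465, 442 and 419 CPM in the controls, so each library matched its label. In bulk RNA of whole larvae, fewer cells of a type and less RNA per cell cannot be told apart.

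Transcripts for complex I were lower in *Pyk* mutants, by less than 2-fold in each subunit that fell. Of the 34 members tested, 26 fell (76.5%), 0 rose and 8 did not pass the test (edgeR's quasi-likelihood test, Benjamini-Hochberg adjusted p of at most 0.05). Over all 11422 genes tested, 26% were lower and 22.2% were higher. Among 1089 protein-coding genes of similar length and level, described further below, 50.5% were lower and 16% higher. At an unadjusted p under 0.05, 28 members were lower and 0 higher, and DESeq2 and limma-voom also called 0 higher. Adjusted p-values of the 26 members ran between 0.000157 and 0.0439. No member passed the test with a change of 2-fold or more, against 2.25% of all tested genes that were lower and 5.25% that were higher by that much. The median log2 fold change was -0.27 over the 34 members and 0.015 over all tested genes.

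Each library showed the decrease in the summed level. The summed CPM of all members was 4749, 4610 and 4358 in mutants 1, 2 and 3, against 5461, 5399 and 5332 in controls 1, 2 and 3. The highest mutant was below the lowest control, and the mean of the mutants was 15.3% lower (a log2 ratio of -0.24, given without a test). Complex I members took 0.445% to 0.481% of the assigned pairs in the mutants and 0.522% to 0.534% in the controls. Taken gene by gene, 28 of the 34 tested members had every mutant library below every control library. The same held for 31.5% of all tested genes and for 54.5% of the protein-coding genes of similar length and level. None of the members had every mutant above every control, a pattern that 29.4% of all tested genes showed.

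**Figure D1:**
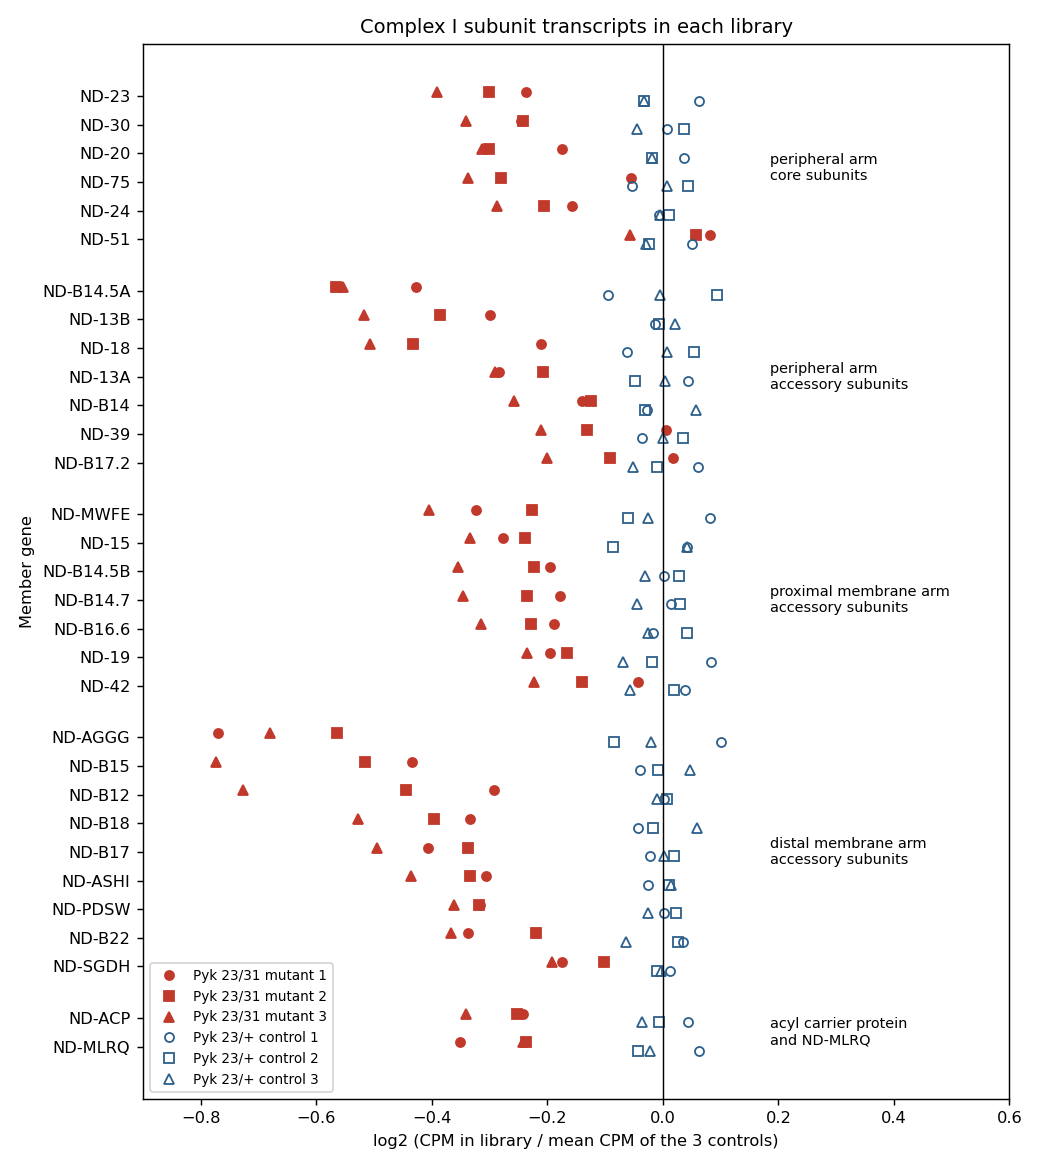
CPM of 31 of the 32 members with at least 100 counts in every library, as the log2 ratio to the mean of the 3 controls (x axis), for mutant libraries (filled) and control libraries (open), with members grouped by arm and ordered by fold change (y axis). Mutant libraries lay to the left of all controls in 27 of those drawn, while those of *ND-51*, *ND-39*, *ND-B17.2* and *ND-42* overlapped them.

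The catalytic core of the peripheral arm consists of 7 nuclear-encoded subunits, and 6 of them fell. The exception was *ND-51*, the ortholog of human NDUFV1, which binds NADH and the flavin that takes its electrons. It had 305, 300.2 and 277 CPM in the mutants, against 299, 284 and 283 CPM in the controls, with a log2 fold change of 0.03 and an SE of 0.063 (adjusted p = 0.729, edgeR). The groups overlapped, and mutant 3 was the lowest of the 6 libraries. *ND-51* lies on chromosome 2L at 6060842 to 6062757 (BDGP6.54). It was the 1 member among the 32 with at least 100 counts per library whose fold change was above 0, though it was -0.063 with upper-quartile scaling and -0.0018 without control 3.

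The partners of *ND-51* at the NADH-oxidising tip were both lower. *ND-24* (NDUFV2), which carries an iron-sulfur cluster beside the flavin, had 138, 133 and 126 CPM in the mutants, against 153, 155 and 153 CPM in the controls, so the log2 fold change was -0.22 with an SE of 0.062 (adjusted p = 0.017, edgeR). *ND-75* (NDUFS1), the largest subunit of this arm, had 361, 309 and 297 CPM in the mutants and 362, 387 and 377 CPM in the controls, so the log2 fold change was -0.22 with an SE of 0.08 (adjusted p = 0.0439, edgeR). The groups of *ND-24* were well apart, while mutant 1 of *ND-75* was level with control 1. The call of *ND-75* was lost in 10 of 15 alternative analyses, with adjusted p-values up to 0.126, among them those without mutant 2, without mutant 3 and without any 1 control (log2 fold changes of -0.25 to -0.16). That of *ND-24* was lost without control 2 (-0.22) and with library totals alone (-0.16).

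The core subunits between the tip and the membrane also fell (fold changes are given ± SE). *ND-23* (NDUFS8), which carries iron-sulfur clusters of the chain, showed the largest decrease of the core, with 136, 129.9 and 122 CPM in the mutants, against 167, 156 and 156 CPM in the controls (log2 fold change of -0.31 ± 0.067, adjusted p = 0.00423, edgeR). *ND-30* (NDUFS3) had 143, 143 and 134 CPM in the mutants and 170.5, 174 and 164 CPM in the controls (log2 fold change of -0.28 ± 0.063, adjusted p = 0.00518, edgeR). No mutant library of either gene reached the lowest control. *ND-20* (NDUFS7), which holds the last cluster before the quinone, had 169, 154 and 153 CPM in the mutants and 195, 188 and 188 CPM in the controls (log2 fold change of -0.26 ± 0.064, adjusted p = 0.00785, edgeR). All 3 mutants of *ND-20* were below its 3 controls.

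The accessory subunits of the distal membrane arm held 7 of the 10 largest decreases among the 32 well-counted members. Of 9 tested, 8 fell and 0 rose, with a median log2 fold change of -0.41, beside -0.22 for the 7 core subunits. The ranking leaves out nuclear subunits without an ND- symbol, among them *NdufA3* (-0.62) and *NdufV3* (-0.43), given below. The difference between arms was not tested. *ND-AGGG* (NDUFB2), on chromosome 3L at 24976254 to 24977118, had the lowest fold change of all members. It was at 40.1, 46.2 and 42.6 CPM in the mutants, against 73.2, 64.4 and 67.4 CPM in the controls, which is 37.1% lower (log2 fold change of -0.67 ± 0.081, adjusted p = 0.000157, edgeR). All 3 mutants were far below the lowest control, and mutant 1 was the lowest. *ND-B15* (NDUFB4) was at 51.9, 49.1 and 41.0 CPM in the mutants and 68.2, 69.8 and 72.5 CPM in the controls (log2 fold change of -0.57 ± 0.091, adjusted p = 0.00079, edgeR). *ND-B12* (NDUFB3) was at 82.9, 74.6 and 61.3 CPM in the mutants and 102, 102 and 101 CPM in the controls (log2 fold change of -0.48 ± 0.10, adjusted p = 0.00347, edgeR). In both of these genes mutant 3 was the lowest library.

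Further along the distal arm, *ND-B18* (NDUFB7) and *ND-B17* (NDUFB6) fell by similar amounts. *ND-B18*, a protein of the intermembrane space, had 59.2, 56.7 and 51.7 CPM in the mutants and 72.4, 73.7 and 77.7 CPM in the controls (log2 fold change of -0.42 ± 0.074, adjusted p = 0.00138, edgeR). *ND-B17* had 63.6, 66.8 and 59.9 CPM in the mutants and 83.2, 85.6 and 84.5 CPM in the controls (log2 fold change of -0.41 ± 0.068, adjusted p = 0.000902, edgeR). In both, the spread within a genotype was smaller than the gap between genotypes. *ND-ASHI* (NDUFB8) had 102, 101 and 93.6 CPM in the mutants and 124, 128 and 128 CPM in the controls (log2 fold change of -0.36 ± 0.064, adjusted p = 0.00143, edgeR). Its exons overlap those of *Fum1* on the other strand, and 24.1% of its stranded counts lay on that strand, so its level rests on the strand of the reads.

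Next to them, *ND-PDSW* (NDUFB10), another intermembrane space subunit, had 139, 139 and 135 CPM in the mutants and 173, 176 and 169.7 CPM in the controls (log2 fold change of -0.33 ± 0.059, adjusted p = 0.0013, edgeR). The 3 mutants differed little among themselves and lay well below the controls. *ND-B22* (NDUFB9), of the LYR family that binds acyl carrier protein, had 119.7, 129.9 and 117 CPM in the mutants and 155, 154 and 145 CPM in the controls (log2 fold change of -0.31 ± 0.068, adjusted p = 0.00445, edgeR). *ND-SGDH* (NDUFB5) was the distal subunit that did not pass, with a log2 fold change of -0.16 ± 0.059 and an adjusted p of 0.0506 (edgeR). Its 3 mutants were nonetheless all below its 3 controls, and it passed without mutant 2 (-0.18).

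The accessory subunits of the peripheral arm were split. Of 8 tested, 4 fell (50%) and 4 did not pass. That share was near the 50.5% lower among protein-coding genes of similar length and level, and above the 26% of all tested genes. *ND-B14.5A* (NDUFA7), on the X chromosome at 2172526 to 2173432, was at 37.0, 33.6 and 33.9 CPM in the mutants, against 46.6, 53.1 and 49.6 CPM in the controls (log2 fold change of -0.51 ± 0.078, adjusted p = 0.000559, edgeR). *ND-13B* (NDUFA5) was at 97.6, 92.0 and 83.9 CPM in the mutants and 119, 119.6 and 122 CPM in the controls (log2 fold change of -0.40 ± 0.072, adjusted p = 0.00146, edgeR). Neither gene had a mutant library near the lowest control. *ND-18* (NDUFS4), whose human ortholog is mutated in Leigh syndrome, was at 66.5, 57.1 and 54.2 CPM in the mutants and 73.8, 80.0 and 77.4 CPM in the controls (log2 fold change of -0.38 ± 0.087, adjusted p = 0.0054, edgeR). *ND-13A* (NDUFS6), a zinc-binding subunit, was at 78.1, 82.4 and 77.8 CPM in the mutants and 98.1, 92.0 and 95.3 CPM in the controls (log2 fold change of -0.26 ± 0.065, adjusted p = 0.00811, edgeR). For *ND-18* the mutants spread more widely than the controls, with mutant 1 nearest to them.

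Among the 4 that did not pass, *ND-B8* had too few counts to be read, and the other 3 were well counted. *ND-B14* (NDUFA6), a LYR protein, had a log2 fold change of -0.17 ± 0.068 (adjusted p = 0.0599, edgeR) with every mutant below every control. *ND-39* (NDUFA9), which holds a bound nucleotide cofactor near the quinone site, and *ND-B17.2* (NDUFA12) had log2 fold changes of -0.11 ± 0.069 and -0.09 ± 0.074 (adjusted p = 0.212 and 0.343, edgeR). In both, mutant 1 lay within or above the range of the controls.

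In the proximal membrane arm, next to the quinone site, 6 of 7 accessory subunits fell, with a median log2 fold change of -0.25. *ND-MWFE* (NDUFA1), a small membrane-spanning subunit, had 59.6, 63.7 and 56.3 CPM in the mutants, against 78.9, 71.6 and 73.3 CPM in the controls (log2 fold change of -0.32 ± 0.075, adjusted p = 0.00635, edgeR). It shares 128 exon bases with *Nrk* on the same strand and overlaps exons of *TppII* on the other, and counts without strand gave a log2 fold change of -0.56 with an adjusted p of 0.0747. *ND-15* (NDUFS5), an intermembrane space subunit, had 104, 107 and 100.2 CPM in the mutants and 129.9, 119 and 129.8 CPM in the controls (log2 fold change of -0.28 ± 0.067, adjusted p = 0.00635, edgeR). *ND-B16.6* (NDUFA13, also known as GRIM-19) had 157, 153 and 144 CPM in the mutants and 177, 184 and 176 CPM in the controls (log2 fold change of -0.24 ± 0.063, adjusted p = 0.0101, edgeR). The groups of these 3 genes did not overlap.

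Among the rest of the proximal arm, *ND-B14.5B* (NDUFC2), *ND-B14.7* (NDUFA11) and *ND-19* (NDUFA8) fell, with log2 fold changes of -0.26, -0.25 and -0.20 (adjusted p = 0.0107, 0.0121 and 0.031, edgeR). The call of *ND-19* was lost in 6 of 15 alternatives, among them those without mutant 1, mutant 3, control 1 or control 2 (log2 fold changes of -0.22 to -0.16). *ND-42* (NDUFA10), which resembles nucleoside kinases, did not pass, at -0.13 ± 0.067 (adjusted p = 0.122, edgeR), and its mutant 1 lay above the lowest control.

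The remaining pair of well-counted members has roles beyond complex I. *ND-ACP* (NDUFAB1) is the mitochondrial acyl carrier protein, which also serves fatty acid synthesis in the matrix. It had 285, 283 and 266 CPM in the mutants, against 347, 335 and 328 CPM in the controls (log2 fold change of -0.28 ± 0.06, adjusted p = 0.00396, edgeR). *ND-MLRQ* is the ortholog of human NDUFA4, which is now counted as a subunit of cytochrome c oxidase. It had 269, 291 and 289.9 CPM in the mutants and 358, 333 and 337 CPM in the controls (log2 fold change of -0.28 ± 0.063, adjusted p = 0.00538, edgeR). Both separated the genotypes in every library, and mutant 1 was the lowest for *ND-MLRQ*.

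The other 8 of the 40 members were at or near 0. *ND-20L*, *ND-24L*, *ND-51L2* and *ND-B14.5AL*, named as paralogs of core or accessory subunits, had 0 counts in all 6 libraries, which allows up to 3 counts in each, or 0.187 to 0.267 CPM. Another paralog had 0, 1 and 0 counts in the mutants and 0 counts in each control. *ND-51L1* had 2, 3 and 3 counts in the mutants, against 2, 1 and 3 in the controls (log2 fold change of 0.07 ± 0.74, adjusted p = 0.945, edgeR). None of the 6 paralogs had more than 3 counts in a library, while the well-counted subunits had 431 to 5867, so the decrease described here concerns the standard subunits. At this depth no difference between genotypes was detectable in the paralogs.

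For *ND-B8* and *ND-MNLL* the tables gave no usable level. *ND-B8* (NDUFA2), on chromosome 2L at 4454626 to 4455207, had 4, 5 and 4 counts in the mutants, against 3, 1 and 1 in the controls (log2 fold change of 0.99 ± 0.70, adjusted p = 0.26, edgeR). On the opposite strand its row held 13, 17 and 13 counts in the mutants and 22, 13 and 8 in the controls, 82.7% of its stranded counts. An exon of *Gs1l* overlaps it on that strand, and why the sense counts are few was not tested. *ND-MNLL* (NDUFB1), on the X chromosome at 7893053 to 7893798, had 0 counts throughout. In the BDGP6.54 annotation all 720 of its exon bases are shared with *CG45089* on the same strand, also at 0. Whether this overlap left the pairs of both genes unassigned in the deposited counts was not tested.

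Levels differed between subunits by about 10-fold, and the order of subunits was nearly the same in both genotypes. TPM values, which divide counts by exon length and sum to the same total in each library, are used here to compare genes within a genotype. *ND-MLRQ* was the highest at 863 ± 36.8 TPM in the mutants and 968 ± 28.4 TPM in the controls (SD, n = 3 each), followed by *ND-ACP* at 541 ± 17.6 and 608 ± 16.3 TPM. *ND-B14.5A* was the lowest, at 70.8 ± 4.06 TPM in the mutants and 93.9 ± 7.48 TPM in the controls, next to *ND-B18* at 81.2 ± 5.25 and 100.5 ± 3.85 TPM. The highest member exceeded the lowest by 12.2-fold in the mutants and 10.3-fold in the controls. Across the 32 well-counted members, mean TPM in the mutants and in the controls had a Spearman correlation of 0.962, a description over genes of the same libraries. Between *ND-51* and *ND-23*, subunits of the core, the order differed by genotype. *ND-51* was at 304 TPM in the mutants, above *ND-23* at 259 ± 13.4 TPM, while in the controls it was at 276 ± 6.86 TPM, under *ND-23* at 297 ± 9.19 TPM.

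**Figure D2:**
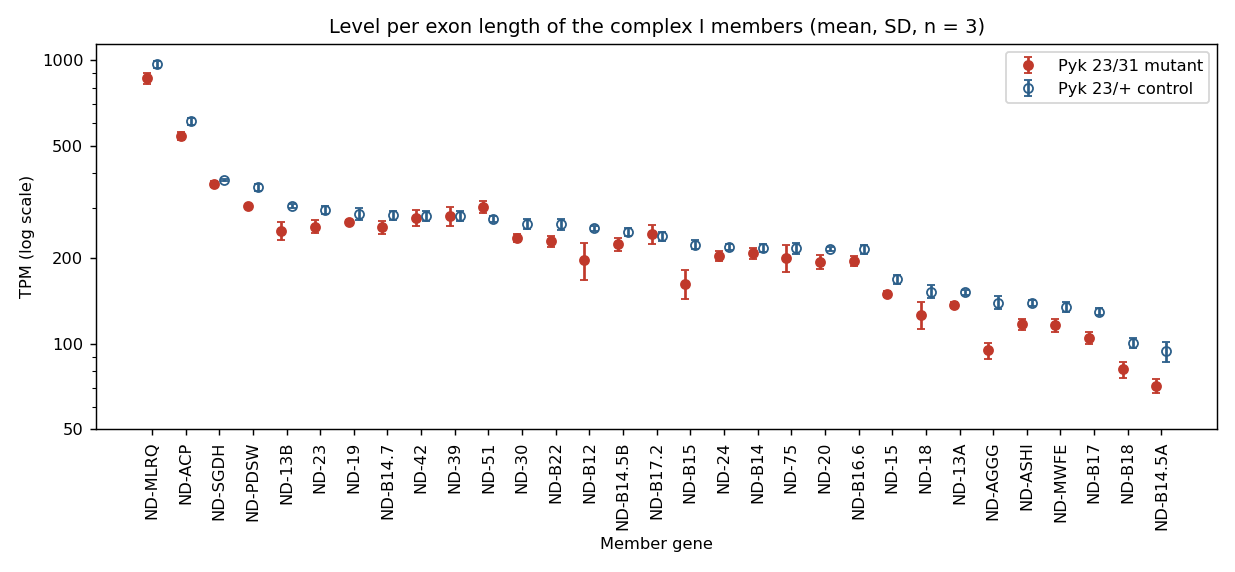
Mean TPM (log scale, error bars SD, n = 3) of 31 of the 32 well-counted members in mutants (filled) and controls (open), ordered by the level in controls. *ND-MLRQ* and *ND-ACP* stand above the rest in both genotypes, and most members lie between 100 and 400 TPM.

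The spread among the mutants had a direction. Mutant 3 was the lowest of all 6 libraries in 28 of the 32 well-counted members, while mutants 1 and 2 were each the lowest in 2. The median log2 ratio to the control mean over these members was -0.24 in mutant 1, -0.24 in mutant 2 and -0.34 in mutant 3. Without mutant 3, 24 members were lower and the median over tested members was -0.24. The median coefficient of variation of a member was 5.39% in the mutants and 3.08% in the controls.

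Members are short and abundant transcripts, and genes of that kind were more often lower than genes at large. The 32 well-counted members, with 431 to 5867 counts in a library, had exon lengths of 477 to 2634 bases and mean TPM values of 82.3 to 916. Of the 1089 protein-coding genes within both ranges, a set chosen after the data had been seen, 50.5% were lower and 16% higher, and every mutant was below every control in 54.5%. Their median log2 fold change was -0.21, beside -0.28 for the well-counted members, of which 26 of 32 (81.2%) were lower. The 1089 genes include the members themselves and *Pyk*.

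**Figure D3:**
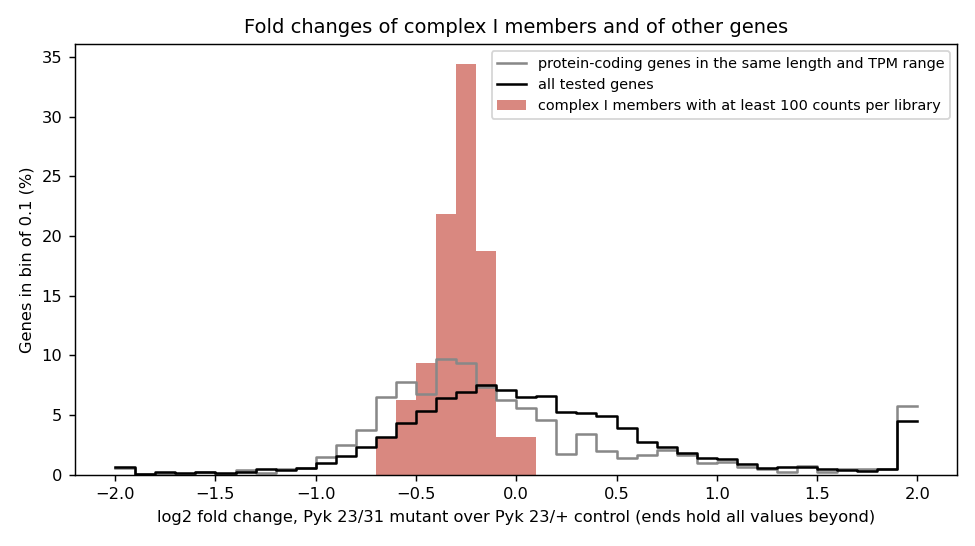
Share of genes (y axis, %) by log2 fold change of mutants over controls (x axis, bins of 0.1) for the 32 well-counted members (bars), the 1089 protein-coding genes in the same length and TPM range (grey line) and all 11422 tested genes (black line). The members lie mostly left of 0, with a median of -0.28, and the median of the genes in the grey line was -0.21. Both lines include the members.

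Shorter and less abundant subunits tended to have the lower fold changes. Over the 32 members, which share the same 6 libraries, the Spearman correlation of log2 fold change with mean TPM was 0.55 and with exon length 0.38, both given as descriptions. Over 10713 protein-coding genes the same correlations were -0.26 and 0.23. In the 5 members of at least 1500 bases, 2 were lower and the median was -0.13, beside -0.19 for genes of the same length and TPM range. The genes of each range here include the members. The 9 members of 800 to 1000 bases had a median of -0.31, beside -0.13 for such genes. Those of 600 to 800 bases had -0.26, beside -0.28. The 3 members under 600 bases had -0.40, beside -0.29, and the 6 of 1000 to 1500 bases had -0.27, beside -0.19, and all 9 of these were lower.

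**Figure D4:**
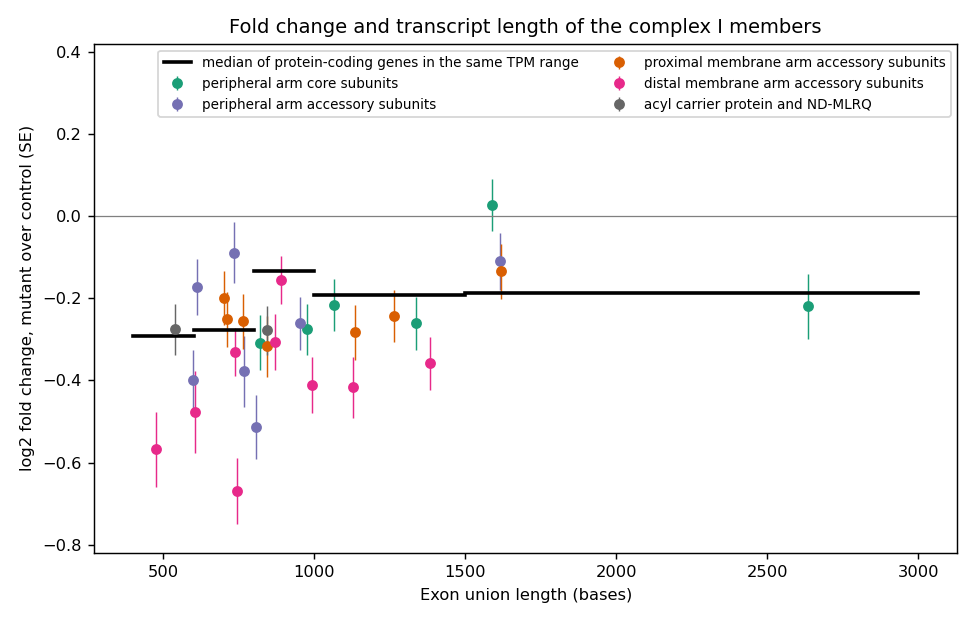
Log2 fold change of mutants over controls (y axis, error bars SE) against exon length (x axis, bases) for 31 of the 32 well-counted members, coloured by arm, with the median of protein-coding genes in the same TPM range drawn as a black line in each of 5 length classes. Distal arm subunits hold the lowest point, *ND-AGGG* at -0.67, and members lie on both sides of the line in the shorter and longer classes. The genes behind each line include the members.

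Complex I genes outside the ND- symbols were examined next. Of 4 further nuclear subunits, a list made after values had been seen, 3 fell and 0 rose. They were *NdufA3* at a log2 fold change of -0.62 ± 0.088, *NdufV3* at -0.43 ± 0.071 and *NP15.6* at -0.31 ± 0.068 (adjusted p = 0.000362, 0.000875 and 0.00402, edgeR). *NdufA3* had 31.6, 32.4 and 26.4 CPM in the mutants, against 47.0, 45.1 and 47.3 CPM in the controls, a gap wider than the spread of either group. The fourth, *CG40472*, had a log2 fold change of -0.26 ± 0.18 (adjusted p = 0.255, edgeR).

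The 7 subunits encoded by mitochondrial DNA behaved less uniformly. Of these, 1 fell (2 with DESeq2), 0 rose and 6 did not pass, beside 26% lower and 22.2% higher over all tested genes. Their median log2 fold change was -0.13. Their summed CPM was 3138, 3402 and 4610 in the mutants, against 3946, 3732 and 4387 in the controls. By this sum mutant 3 was the highest of all 6 libraries, whereas for the nuclear subunits it was the lowest. Gene by gene, mutant 3 was the highest for *mt:ND1*, *mt:ND2*, *mt:ND4L* and *mt:ND5* but not for *mt:ND3*, *mt:ND4* and *mt:ND6*. The 1 that fell was *mt:ND3*, a membrane arm subunit, at 139, 191 and 167 CPM in the mutants and 295, 208 and 258 CPM in the controls (log2 fold change of -0.61 ± 0.17, adjusted p = 0.0269, edgeR). That call was lost without mutant 1, mutant 3, control 1 or control 3 and without replicate 3 of both genotypes. Over all alternatives its log2 fold change lay between -0.75 and -0.50 and its adjusted p reached 0.235. *mt:ND1*, which lines the quinone channel, was at 1132, 1110.3 and 1439 CPM in the mutants and 1058, 1101 and 1272 CPM in the controls (log2 fold change of 0.10, adjusted p = 0.498, edgeR). The libraries were made by poly(A) selection, and whether these transcripts were captured alike in all of them was not tested. The difference between nuclear and mitochondrial subunits was not tested.

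Assembly factors, which join the subunits and are not part of the finished complex, were mostly lower. Of 9 tested, 6 fell (66.7%, and 5 genes with DESeq2) and 0 rose, with a median log2 fold change of -0.39. By comparison, 26% of all tested genes were lower and 22.2% higher. *CG3270* was lowest, at 27.2, 30.8 and 28.1 CPM in the mutants and 46.3, 58.9 and 44.8 CPM in the controls (log2 fold change of -0.80 ± 0.11, adjusted p = 0.000323, edgeR). *sicily*, which binds complex I subunits before their import, had a log2 fold change of -0.39 ± 0.083 (adjusted p = 0.00379, edgeR), with every mutant below every control. *Nubpl*, which inserts iron-sulfur clusters, had a log2 fold change of -0.02 (adjusted p = 0.816, edgeR), and *CIA30* one of -0.09 (adjusted p = 0.366, edgeR).

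Regulators of mitochondrial biogenesis went both ways. Of 11 tested, 5 fell (45.5%) and 1 rose, beside 26% lower and 22.2% higher over all tested genes. *srl*, the fly relative of the PGC-1 coactivators, was at 106, 104 and 100.3 CPM in the mutants and 170.0, 162 and 173 CPM in the controls (log2 fold change of -0.71 ± 0.062, adjusted p = 3.56e-05, edgeR). *TFAM*, which packages mitochondrial DNA, had a log2 fold change of -0.60, and *mtSSB*, which binds it during replication, one of -0.89 (adjusted p = 0.000346 and 8.42e-05, edgeR). *mtTFB2*, a mitochondrial transcription factor, and *clu* had -0.44 and -0.41 (adjusted p = 0.00914 and 0.000682, edgeR). *ewg*, the fly relative of NRF-1, was the 1 that rose, at 34.9, 32.4 and 38.7 CPM in the mutants, against 26.6, 23.3 and 24.4 CPM in the controls (log2 fold change of 0.51 ± 0.09, adjusted p = 0.00127, edgeR). *PolrMT*, *PolG1*, *ERR*, *Ets97D* and *Myc* did not pass.

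Other gene groups of the mitochondrion and of translation were lower as well. Of 36 tested genes of respiratory complexes II to V, 30 fell and 0 rose, with a median log2 fold change of -0.27, beside -0.27 for the members of complex I. Their summed CPM was 17184, 16469 and 15793 in the mutants and 19936, 19774 and 19048 in the controls. That list includes *COX6AL*, *COX6AL2*, *COX6CL* and *ATPsynepsilonL*, whose symbols name them as paralogs. Mitochondrial ribosomal proteins fell in 69 of 72, with a median of -0.54. Cytosolic ribosomal proteins fell in 73 of 83 and rose in 1, with a median of -0.31. In each of these groups the highest mutant sum was below the lowest control sum. For each list with 0 higher, 0 were also higher at an unadjusted p under 0.05 and with DESeq2 or limma-voom. The differences between these groups and complex I were not tested.

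**Figure D5:**
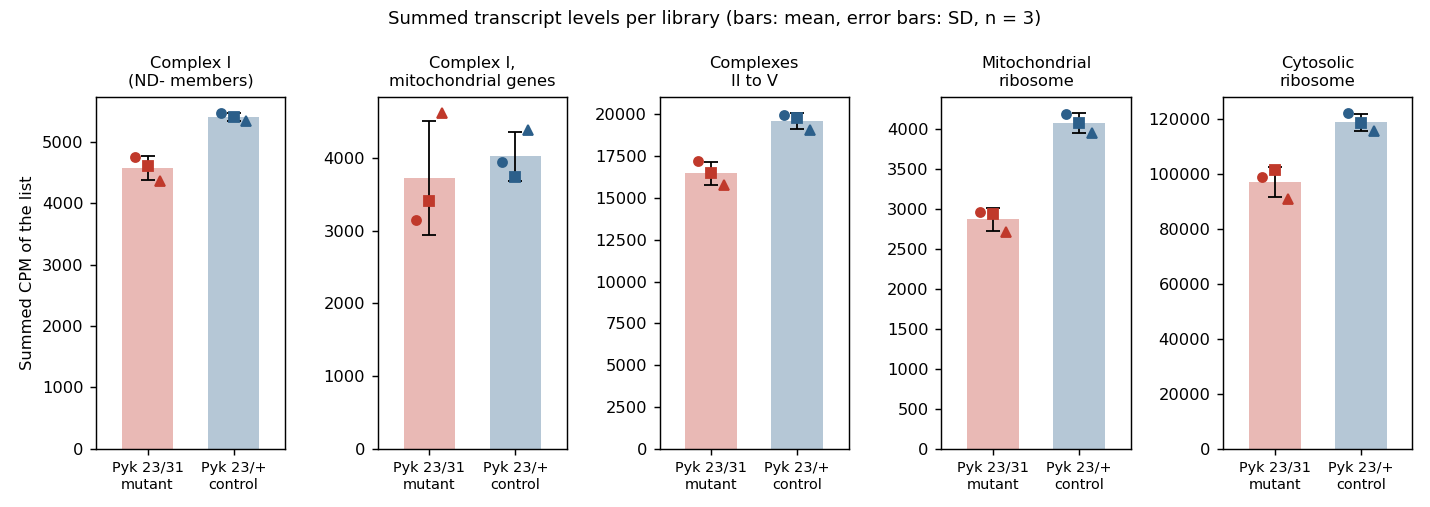
Summed CPM per library (points, replicates 1, 2 and 3 as circle, square and triangle) with the mean (bar, from 0) and SD (error bar, n = 3) in mutants (left) and controls (right), for 5 gene groups with separate y axes. Mutant sums lie below all control sums in each group but the mitochondrially encoded subunits, where mutant 3 reached 4610.

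Markers of cell types differed in direction between types, and their part in the decrease was not tested. Over all tested genes 26% were lower and 22.2% higher, and in the length and TPM range of the members 50.5% were lower and 16% higher. Of 12 muscle genes, 7 were lower (4 with DESeq2) and 0 higher. None of them was at 0, and their summed CPM was 59620 to 65917 in the mutants and 67740 to 70067 in the controls. Fat body genes were 3 lower and 2 higher of 5 tested among 8 (2 lower and 2 higher with DESeq2). Their sums were 5508 to 6250 CPM in the mutants and 7584 to 7995 in the controls. Most of each sum was *apolpp*, with means of 5160 CPM in the mutants and 6903 in the controls. The 3 lower were *apolpp*, *Apoltp* and *Lsd-1*, with log2 fold changes of -0.42, -0.18 and -0.85. The 2 higher were *AkhR* and *bmm*, at 0.66 and 1.46. *Lsp2*, *Fbp1* and *Adh* of the fat body list were at or near 0. Midgut genes were 3 higher of 7 tested (4 with DESeq2), with sums of 1555 to 1972 CPM in the mutants and 1188 to 1542 in the controls. Germline genes were 3 higher of 4 (1 with DESeq2), with sums of 21.8 to 25.4 CPM in the mutants and 15.8 to 16.98 in the controls. Of 12 testis genes 4 could be tested and 1, *aly*, passed as higher with edgeR, while DESeq2 and limma-voom called 0. Of these genes *Mst98Ca* was at 0 in all libraries, and sums were 1.07 to 4.29 CPM in the mutants and 0.885 to 1.12 in the controls.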

How the data were processed

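RNA-seq of whole L2 larvae was analysed in 3 *Pyk 23/31* mutant and 3 *Pyk 23/+* control libraries, grouped by the genotype in their labels. For each library the authors deposited raw counts of read pairs per gene, not normalized, both ignoring strand and by strand. STAR and BDGP6 are named in the submitters' processing notes, without versions. The counts for the strand that a TruSeq Stranded mRNA library reads were used, and 2.50% to 2.55% of stranded pairs lay on the other strand. Another 486 rows that name no gene held 0.0329% to 0.0461% of assigned pairs and were left out.

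Genes with at least 12 counts over 6 libraries were tested with edgeR 4.0.16 in R 4.3.3 (TMM, robust quasi-likelihood test), with Benjamini-Hochberg adjustment over all 11422 of them. SE is the log2 fold change divided by the root of the F statistic. TPM used exon lengths from the BDGP6.54 annotation (Ensembl release 115), which also gave coordinates and overlaps. No pair of libraries agreed within sampling noise, so none was merged. The submitters call the samples of a genotype biological replicates, without stating whether larvae came from separate cultures, so p-values reflect the spread among these samples.

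Members and lists (subunits by arm, paralogs, mitochondrially encoded subunits, assembly factors, biogenesis regulators, complexes II to V, ribosomal proteins of both compartments, cell type markers) were chosen with earlier results of these data known. Values per library are given for the 7 core subunits, for the 20 members with the smallest p among those that passed, for the 3 members with the largest and the 3 with the smallest fold change, and as counts for paralogs. Among the core, 1 subunit enters all counts and sums but is not reported individually here. A marker in the germline list and some symbols in the lists of membrane arm subunits and paralogs had no match. Alternatives were DESeq2 1.42.0, limma-voom 3.58.1, other scalings and filters, counts without strand, left-out libraries and a replicate block. Promoter motifs were not searched here.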

Additional observations from a re-analysis of the deposited data

How the results depend on the processing

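Over 15 alternatives the number of members that fell ran between 22 (library totals without TMM factors) and 30 (upper-quartile factors), and the numbers that rose or passed the test at 2-fold stayed at 0. It was 24 with DESeq2, 27 with limma-voom, 27 with counts without strand, 25 with edgeR's own filter and 26 with no filter. Leaving out 1 library gave 22 to 25, with the fewest (22) without control 2, while the number was 25 when replicate 3 was dropped from both genotypes. The median log2 fold change ran between -0.29 and -0.24 and the summed log2 ratio between -0.27 and -0.20 when 1 library was left out. With upper-quartile factors they were -0.36 and -0.33, and the median of all tested genes was then -0.075. With library totals alone they were -0.21 and -0.18, and the median of all tested genes was then 0.072. *ND-51* turned to -0.063 with upper-quartile factors and ran between -0.0018 (without control 3) and 0.071 (without mutant 3) when 1 library was left out. *ND-51L1*, with 14 counts in all, turned to -0.015 with upper-quartile factors and ran between -0.27 (without control 2) and 0.32 (without mutant 1). Calls were also lost for *ND-24* in 2 and *ND-MWFE* in 1 of the alternatives, and gained for *ND-SGDH* in 4, *ND-B14* in 3 and *ND-39* and *ND-42* in 1 each. Of the named genes that passed, outside the members, *Pyk* and the fat body genes, 11 passed in all 15 alternatives. *mt:ND3* passed in 9 of 15 (lost with the replicate block as well) and *aly* in 7 of the 12 in which it had a value. Why these calls moved was not tested. Same-numbered libraries had correlations of deviations of -0.29, -0.10 and -0.31. Differently numbered ones ran between -0.14 (mutant 1 with control 2) and 0.29 (mutant 1 with control 3). Deviations taken within 3 libraries of a genotype cannot show whether samples were collected in pairs. The replicate block left 26 members lower and 0 higher (the same 26 genes), with a median of -0.27 and no call changed among the other members. Depth limits the paralogs and *ND-B8*, with at most 18 counts in all. The log2 fold change of *ND-B8* lay between 0.72 and 1.67 over its alternatives, and it passed in none of those that gave it an adjusted p (DESeq2 gave none).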

Other observations

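Complex I members are spread over all chromosome arms. The 8 well-counted members on the X chromosome all fell (7 with DESeq2 and 7 with limma-voom), with a median log2 fold change of -0.31. On the autosomes 18 of 24 fell (17 with DESeq2 and 20 with limma-voom), with a median of -0.28. Their summed CPM was 1089, 997 and 953 in the mutants, against 1204, 1248 and 1227 in the controls, for the X chromosome, and 3659, 3613 and 3404 in the mutants, against 4257, 4151 and 4105 in the controls, for the autosomes. The difference between X and autosomes was not tested. Over all tested genes 26% were lower, and shares for all X-linked and all autosomal genes were not computed. *ND-42* is on the same arm as *Pyk* (3R) and ends 338143 bases from its start.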
